A study of Homo sapiens with 2 samples.

Results

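The genes described here are 10 regulators of WNT and beta-catenin signalling, taken by symbol from a table of 27685 genes: CTNNB1, which encodes beta-catenin, APC, AXIN1, AXIN2 and GSK3B of its destruction complex, the transcription factors TCF7, TCF7L1 and TCF7L2, and the ubiquitin ligases RNF43 and ZNRF3. All 10 were found, each on 1 row of the table. They were measured in total RNA of NCI-H838, a human lung adenocarcinoma cell line, 48 hours after transient transfection with Lipofectamine. One culture received pCDH-LINC00472, a plasmid with the full-length long noncoding RNA LINC00472 (LINC00472 cells), and the other received the empty pCDH plasmid (control cells). Each group held 1 library, so the differences could not be checked against replicates, p-values are not given and every interval covers counting error only. The share of cells that took up the plasmid was not given in the sources used here.

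WNT ligands bind Frizzled and LRP receptors at the cell surface. Without a ligand, the scaffolds AXIN and APC hold beta-catenin beside the kinases CK1 and GSK3, whose phosphorylation marks it for destruction by the proteasome. With a ligand, beta-catenin accumulates, enters the nucleus and binds TCF and LEF factors at target genes. Several of those targets, such as AXIN2, RNF43 and ZNRF3, encode negative feedback regulators of the same pathway. Much of the control by the pathway acts on beta-catenin protein, which RNA levels do not measure.

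In the LINC00472 library, RNA of the main scaffold AXIN1 and of the low-level factor TCF7 was lower by 2.07-fold and 2.13-fold than in the control library. RNA of AXIN2, TCF7L2 and CTNNB1 stood just short of a 2-fold difference, AXIN2 and TCF7L2 on the higher side and CTNNB1 on the lower. APC, GSK3B, TCF7L1, RNF43 and ZNRF3 lay nearer to equality with this scaling. DESeq2 size factors gave the same calls, while 4 other scalings, total counts and upper quartile factors among them, called AXIN2 and TCF7L2 higher and neither AXIN1 nor TCF7 lower. In bulk RNA, a lower level in all cells and fewer cells with the transcript cannot be told apart. The balance inside the AXIN pair and inside the TCF family differed between the libraries. These within-library balances do not depend on how the libraries are scaled to each other. Such shifts were common, however. Of all pairs of protein-coding genes, 19.0% differed by more than the AXIN pair and 19.4% by more than TCF7 and TCF7L2. Adjustment for transcript properties left the AXIN difference at 2.0 log2 units and took that of TCF7 and TCF7L2 from -1.99 to -1.33.

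The LINC00472 library held 21093055 gene counts and the control library 54823706. LINC00472 itself had 5655 counts in the library labelled as overexpressing it, against 2563 in the control, a ratio of 4.69-fold. Of 11 markers of lung adenocarcinoma and simple epithelium, 7 reached 1 FPKM (fragments per kilobase of transcript, relative to the library's size) in LINC00472 cells and 6 in control cells, and the lung markers NKX2-1 and SFTPB had 0 counts in both. The summed level of these 11 was 74.8 FPKM in LINC00472 cells and 301.8 FPKM in control cells, with KRT7, KRT8 and KRT18 lower, CDH1 at a log2 ratio of 0.47 and NAPSA, a lung protease gene, higher (1.49). That of 5 mesenchymal markers, nearly all from VIM, was 148.6 FPKM in LINC00472 cells and 430.8 FPKM in control cells. That of 5 leukocyte markers, mostly CD68, was 10.1 FPKM in LINC00472 cells and 15.1 FPKM in control cells. The summed level of 4 endothelial markers was 0.165 FPKM in LINC00472 cells and 0.153 FPKM in control cells. That of 5 squamous markers was 0.0162 FPKM in LINC00472 cells and 7.03 FPKM in control cells. The part of these marker levels in the results below was not tested.

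CTNNB1 dominated the family in both libraries. It had 151.8 FPKM in LINC00472 cells and 255.8 FPKM in control cells, which placed it at rank 180 and at rank 203 of all genes in the LINC00472 and control libraries. GSK3B came next with 20.6 FPKM in LINC00472 cells and 17.5 FPKM in control cells. In the LINC00472 library the order by level per length was then APC, TCF7L2, AXIN1, RNF43, ZNRF3, AXIN2, TCF7L1 and TCF7. In the control it was AXIN1, APC, ZNRF3, TCF7L2, RNF43, TCF7, AXIN2 and TCF7L1. Counting intervals of neighbours overlapped for APC and TCF7L2 and for TCF7L1 and TCF7 in the LINC00472 library, and for ZNRF3 and TCF7L2, TCF7 and AXIN2, and AXIN2 and TCF7L1 in the control. All other neighbours were separated by more than counting error.

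**Figure D1:**
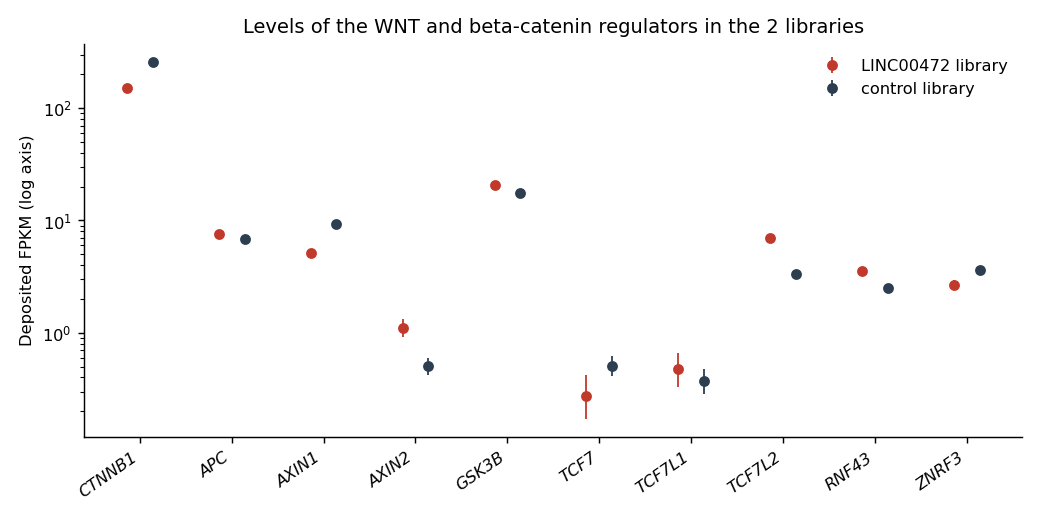
Deposited FPKM of the 10 regulators on a log axis, in the LINC00472 library (red) and the control library (dark), with exact 95% Poisson counting intervals and 1 library a group. CTNNB1 is far above the other genes in both libraries, and AXIN2, TCF7 and TCF7L1 lie lowest, near or below 1 FPKM.

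The genes were set against each other between libraries by the ratio of TMM-scaled counts (trimmed mean of M-values, a scaling that assumes most genes do not differ). A gene was called higher or lower where its mean level was at least 1 CPM (counts per 1000000 of the scaled library total), the ratio at least 2-fold and the 95% counting interval excluded equality. All 10 regulators reached the minimum, TCF7 through its level in the control. By this rule 2 of the 10 regulators were lower in the LINC00472 library and 0 were higher. Among all 14012 genes at the minimum, 23.8% were lower and 16.3% were higher, so the share of regulators called was near to or below the background in both directions. The median log2 ratio was 0.01 over the 10 regulators and -0.19 over all genes at the minimum.

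CTNNB1, the effector of the pathway and a partner of cadherins at cell junctions, had 12245 counts in LINC00472 cells and 49605 in control cells. The log2 ratio was -0.93 (95% counting interval -0.96 to -0.90), a 1.90-fold lower level that did not reach the 2-fold rule. Of all genes at the minimum, 74.0% had a higher ratio. JUP, the junctional relative of beta-catenin also called plakoglobin, had 279 counts in LINC00472 cells and 1126 in control cells, with a log2 ratio of -0.92.

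Within the destruction complex the scaffolds AXIN1 and AXIN2 lay on opposite sides of equality. AXIN1, the scaffold that most cells express, had 427 counts in LINC00472 cells and 1885 in control cells, or 18.3 CPM in LINC00472 cells and 38.0 CPM in control cells. Its log2 ratio was -1.05 (interval -1.21 to -0.90). AXIN2, a scaffold of the same function that is induced by the pathway itself, had 111 counts in LINC00472 cells and 122 in control cells, although the control held more than 2 times as many counts in all. That came to 4.76 CPM in LINC00472 cells and 2.46 CPM in control cells, with a log2 ratio of 0.95 (0.57 to 1.34). The interval of AXIN2 reaches past 2-fold, and 17.3% of genes at the minimum had a higher ratio.

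APC and GSK3B had nearly equal levels with TMM scaling, and lower ones once transcript properties were adjusted for. APC, the large scaffold lost in most colorectal tumours, had 1934 counts in LINC00472 cells and 4207 in control cells, or 83.0 CPM in LINC00472 cells and 84.8 CPM in control cells. Its log2 ratio was -0.03 (interval -0.11 to 0.05). GSK3B, the kinase that phosphorylates beta-catenin, had 3433 counts in LINC00472 cells and 7074 in control cells, or 147.3 CPM in LINC00472 cells and 142.6 CPM in control cells. Its log2 ratio was 0.05 (-0.01 to 0.11). For both genes the interval included equality. With ratios adjusted for transcript properties and centred, as described below, APC was at -0.56 and GSK3B at -0.59, so their near equality depended on that choice. The summed FPKM of APC, AXIN1, AXIN2 and GSK3B was 34.4 in LINC00472 cells and 34.2 in control cells, so that CTNNB1 stood at 4.41 times that sum in the LINC00472 library and at 7.49 times in the control.

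TCF7L2, also called TCF4, is the main partner of beta-catenin in many epithelial cells. It had 647 counts in LINC00472 cells and 745 in control cells, or 27.8 CPM in LINC00472 cells and 15 CPM in control cells. The log2 ratio was 0.89 (interval 0.73 to 1.04), a 1.85-fold higher level short of the rule. TCF7, also called TCF1, had only 21 counts in LINC00472 cells and 96 in control cells. This was 0.901 CPM in LINC00472 cells and 1.94 CPM in control cells, a log2 ratio of -1.09 with a wide interval (-1.86 to -0.41). TCF7L1, also called TCF3 and mainly a repressor, had 33 counts in LINC00472 cells and 62 in control cells, with a log2 ratio of 0.18 whose interval included equality (-0.48 to 0.81).

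LEF1, the remaining factor of the family, had 0 counts in both libraries, which allows up to 3 counts in each. TCF7L2 therefore made up most of the TCF and LEF RNA per length. It took 90.4% of the summed FPKM of the 4 factors in LINC00472 cells and 79.0% in control cells. TCF7 took 3.51% in LINC00472 cells and 12.1% in control cells, and TCF7L1 took 6.08% in LINC00472 cells and 8.88% in control cells. The summed FPKM of the 4 was 7.79 in LINC00472 cells and 4.19 in control cells.

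Since TCF and LEF proteins bind a short DNA motif, the promoters of the regulators were searched for it. The RefSeq table (GRCh38.p14) held 13 start sites for 8 of the 10 regulators, and AXIN2 and ZNRF3 were not matched. The 250 bases before each start were searched on both strands for 4 forms of the motif, which differ in their last bases and so cannot match at the same position. Of all 35116 promoters of the same length, 3.8% held CTTTGAA, 2.26% held CTTTGAT, 2.35% held CTTTGTA and 4.50% held CTTTGTT. A match to any of them stood before 2 of the 13 starts (15.4%), against 12% of all promoters, and GC content before the 13 starts ran from 42.4% to 77.6%. The matches lay before the second starts of TCF7 and TCF7L2, and a link between the matches and the ratios was not tested. SP5, a transcription factor gene known as a direct target, is shown beside these 2 genes. It was chosen after the search because it held 3 matches, a number reached by 0.122% of promoters. LEF1 was searched as well. LEF1 held 0 matches, and NKD1, another pathway gene, could not be searched because no promoter was found for it. Capitals mark the matched letters, in either orientation, and a match describes the sequence and is no evidence of binding.
TCF7, chr5:134123368-134123617, plus strand: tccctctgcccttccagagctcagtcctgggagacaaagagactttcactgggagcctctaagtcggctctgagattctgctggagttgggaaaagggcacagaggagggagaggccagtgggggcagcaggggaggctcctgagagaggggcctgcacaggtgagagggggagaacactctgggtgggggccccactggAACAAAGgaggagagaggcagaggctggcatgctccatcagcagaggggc
TCF7L2, chr10:113126383-113126632, plus strand: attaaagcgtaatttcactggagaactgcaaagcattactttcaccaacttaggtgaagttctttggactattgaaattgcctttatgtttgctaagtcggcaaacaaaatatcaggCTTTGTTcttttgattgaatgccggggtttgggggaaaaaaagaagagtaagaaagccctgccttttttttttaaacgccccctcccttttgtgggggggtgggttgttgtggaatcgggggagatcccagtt
SP5, chr2:170715087-170715336, plus strand: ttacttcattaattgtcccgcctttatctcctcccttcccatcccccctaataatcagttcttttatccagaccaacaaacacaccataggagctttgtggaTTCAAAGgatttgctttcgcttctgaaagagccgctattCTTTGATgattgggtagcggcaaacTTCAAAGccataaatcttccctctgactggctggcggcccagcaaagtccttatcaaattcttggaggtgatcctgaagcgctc

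RNF43 and ZNRF3 are membrane ligases that remove Frizzled receptors from the cell surface and so dampen the pathway. RNF43 had 477 counts in LINC00472 cells and 805 in control cells, or 20.5 CPM in LINC00472 cells and 16.2 CPM in control cells. Its log2 ratio was 0.33 (interval 0.17 to 0.50). ZNRF3 had 420 counts in LINC00472 cells and 1371 in control cells, or 18.0 CPM in LINC00472 cells and 27.6 CPM in control cells. Its log2 ratio was -0.62 (-0.78 to -0.46). Neither met the rule. ZNRF3 made up 43.0% of the summed FPKM of the pair in LINC00472 cells and 59.1% in control cells, while the sum was 6.22 FPKM in LINC00472 cells and 6.10 FPKM in control cells.

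The calls depended on the scaling, since every ratio moves by the same amount when the library totals are defined differently. Over all genes the median log2 ratio was 0.11 with total counts, 0.21 with upper quartile factors and 0.03 with TMM factors from protein-coding genes alone. Under each of these, and with totals that left out the 100 most abundant genes, AXIN2 and TCF7L2 were higher and none of the 10 was lower. The background of higher genes was then 22.5% with total counts, 25.1% with upper quartile factors, 20.8% with the protein-coding factors and 24.5% without the 100 most abundant genes. Across the scalings the log2 ratio of AXIN2 ran from 0.95 to 1.34, that of TCF7L2 from 0.89 to 1.27, that of AXIN1 from -1.05 to -0.66, that of TCF7 from -1.09 to -0.71 and that of CTNNB1 from -0.93 to -0.54. These 5 genes kept the sign of their ratio under all 6 scalings, as did GSK3B, TCF7L1, RNF43 and ZNRF3, while APC ran from -0.03 to 0.36. For genes above equality with TMM this could hardly fail. The other scalings raised every ratio or, with DESeq2 size factors, left it nearly unchanged.

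**Figure D2:**
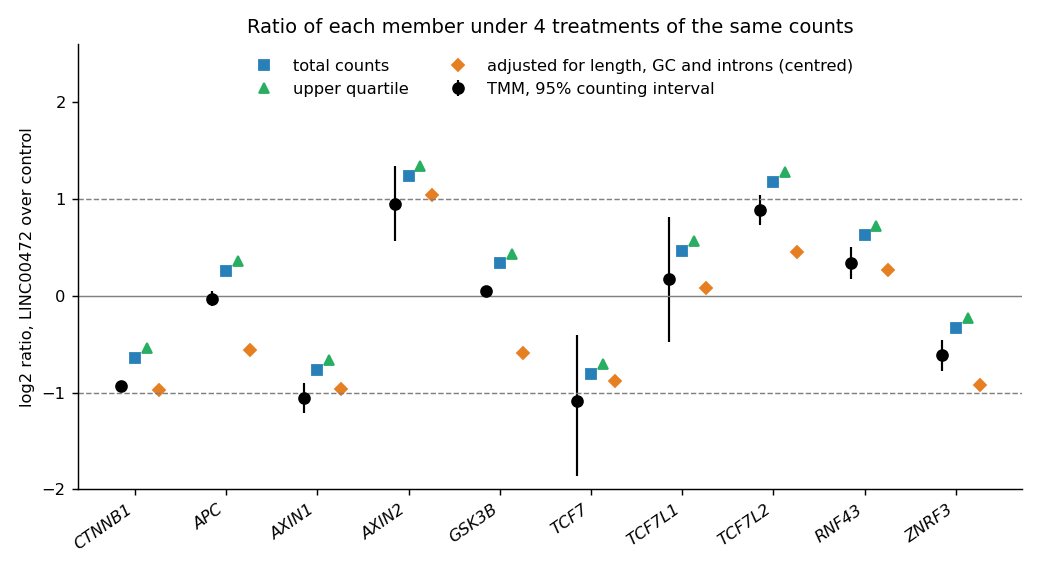
Log2 ratio of LINC00472 over control for each regulator with TMM scaling (black, 95% counting interval), total counts (blue), upper quartile factors (green) and after adjustment for the length, GC content and introns of transcripts and centring (orange). Dashed lines mark a 2-fold difference, which AXIN1 and TCF7 pass on the lower side with TMM, and AXIN2 and TCF7L2 on the higher side with total counts and upper quartile factors.

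Transcript length moved with the ratio of protein-coding genes. The median log2 ratio was -1.40 in the decile of shortest transcripts and 0.29 in the decile of longest ones. The 10 regulators have transcripts of 2968 nt (TCF7L1) to 10701 nt (APC). AXIN2 (4259 nt) lay 1.13 and TCF7L2 (4000 nt) 1.07 log2 units above the median of their common decile. TCF7 lay 0.78 and TCF7L1 0.49 from theirs, TCF7 below and TCF7L1 above it, and RNF43 lay 0.42 above. On the lower side, AXIN1 was at -0.76, ZNRF3 at -0.72, CTNNB1 at -0.64, APC at -0.33 and GSK3B at -0.25 relative to genes of their decile. Ratios were also adjusted for the length and GC content of transcripts and the length of introns, and centred on the median of the unadjusted ones. AXIN2 was then higher (log2 ratio 1.04, with 14.5% of all genes higher and 20.4% lower), and none of the 10 was lower. TCF7L2 was at 0.45, RNF43 at 0.27 and TCF7L1 at 0.08. CTNNB1 was at -0.97, AXIN1 at -0.96, ZNRF3 at -0.92, TCF7 at -0.88, GSK3B at -0.59 and APC at -0.56. With centring, AXIN1 and TCF7 thus lost their calls, and the median of the 10 was -0.575 in place of 0.01. Over all adjusted genes the centred median was -0.22. The adjustment accounted for a fraction of 0.117 of the variance of the ratios. Centring was added after the data were seen. In the planned form without it, AXIN1 (-1.06), CTNNB1 (-1.07) and ZNRF3 (-1.02) were lower, and AXIN2 and TCF7 were not called. Of all genes, 23.8% were then lower and 12.7% higher.

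**Figure D3:**
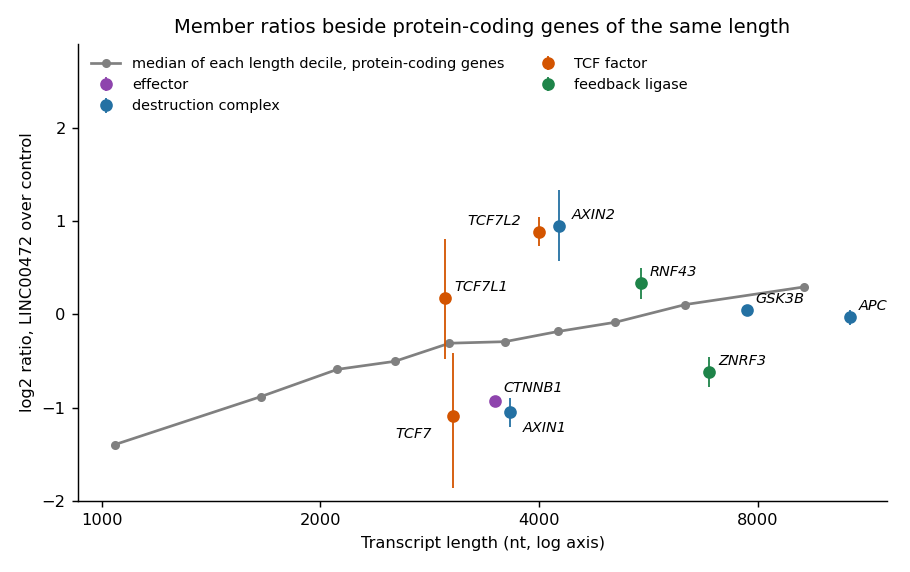
Log2 ratio of each regulator (coloured by role, 95% counting interval) against the length of its transcript on a log axis, with the median ratio of each length decile of protein-coding genes in grey. AXIN2 and TCF7L2 lie furthest above the grey line, and TCF7, AXIN1, ZNRF3 and CTNNB1 furthest below it.

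Reads of some regulators may be shared with other loci. In GENCODE 29, 75.1% of the 50-base windows of the RNF43 transcript also occur in other annotated genes, namely AC004687.2, TSPOAP1-AS1 on the opposite strand and the neighbour SUPT4H1. TSPOAP1-AS1 had 105 counts in LINC00472 cells and 87 in control cells, with a log2 ratio of 1.35, and SUPT4H1 had 389 counts in LINC00472 cells and 3236 in control cells, with a log2 ratio of -1.97. For AXIN2 the share was 30.2%, all from the overlapping entry AC004805.1 on the same strand, for TCF7L2 6.38%, and for the other 7 regulators it was at most 1.70%. AC004687.2 and AC004805.1 were not listed under these names among the counted genes, so no counts of theirs can be given. Exons of TCF7 share 210 bases with SKP1 on the opposite strand. SKP1 had 2051 counts in LINC00472 cells and 11167 in control cells. The strand setting of the counts is not given, and the part of such reads in the ratios was not tested. The counts of RNF43, AXIN2 and TCF7 are uncertain to that extent.

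Changes in the balance between 2 related genes were then read from the 4 counts of each pair, which leaves the scaling out. For 8 pairs chosen by family or role, the AXIN pair and the TCF7 and TCF7L2 pair differed most. AXIN2 relative to AXIN1 was 4.01-fold higher in the LINC00472 library (log2 2.0, 95% counting interval 1.59 to 2.42). Per length, AXIN2 was at 0.218 of the level of AXIN1 in the LINC00472 library and at 0.0544 in the control, and it took 17.9% of their summed FPKM in LINC00472 cells and 5.16% in control cells. Adjustment for transcript properties left this difference at 2.0. Among all pairs of protein-coding genes at the minimum, 19.0% differed by more, so a shift of this size was common in these libraries.

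TCF7 relative to TCF7L2 was 3.97-fold lower in the LINC00472 library (log2 -1.99, interval -2.76 to -1.28), with 19.4% of all pairs differing by more, and adjustment left it at -1.33. TCF7 relative to TCF7L1 gave a log2 difference of -1.28 (-2.28 to -0.30) and TCF7L1 relative to TCF7L2 one of -0.71 (-1.38 to -0.05), both resting on few counts. ZNRF3 relative to RNF43 was at -0.95 (-1.18 to -0.72). Of all pairs, 40.2% differed by more than TCF7 and TCF7L1, and 64.2% by more than TCF7L1 and TCF7L2. For ZNRF3 and RNF43 that share was 53.2%.

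APC relative to AXIN1 was at 1.02 (0.85 to 1.19), and GSK3B relative to GSK3A, the other GSK3 kinase gene, was at 1.23 (1.0 to 1.47). These 2 differences were 0.40 and 0.12 after adjustment for transcript properties, and APC and GSK3B have far longer transcripts than their partners. Before adjustment, 50.2% of all pairs differed by more than APC and AXIN1, and 42.0% by more than GSK3B and GSK3A. CTNNB1 relative to JUP was at -0.01 (-0.20 to 0.19), so the 2 catenins kept their balance within counting error before adjustment. Adjustment moved this difference to -0.25, outside its interval.

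**Figure D4:**
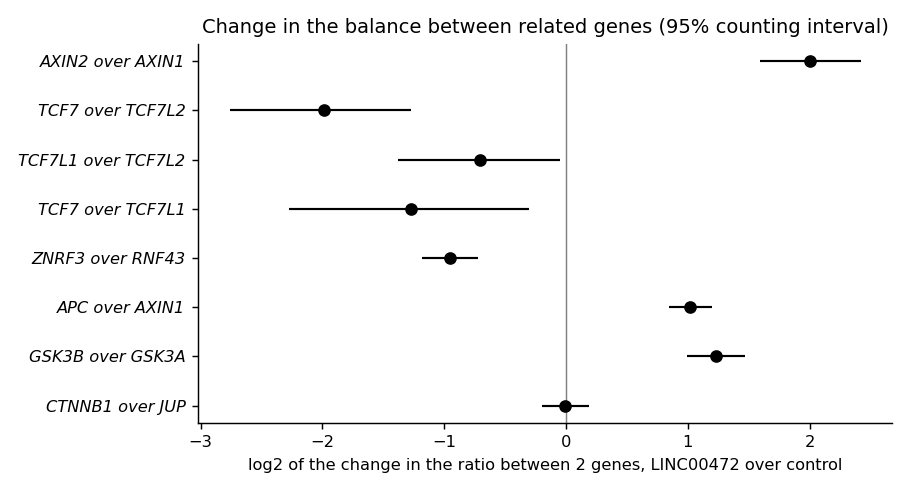
Change in the ratio between 2 related genes, as log2 of LINC00472 over control with exact 95% counting intervals, for 8 pairs. AXIN2 over AXIN1 lies at 2.0, TCF7 over TCF7L2 at -1.99 and CTNNB1 over JUP at -0.01.

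The rest of the pathway was described from 8 lists with 137 genes besides the 10 regulators, of which 94 were at the minimum. Of these, 5 (5.32%) were higher and 20 (21.3%) lower in the LINC00472 library, against 16.3% and 23.8% of all genes. With upper quartile factors 10 (10.6%) were higher and 10 (10.6%) lower, against 25.1% and 14.2% of all genes. These shares of all genes are also the background for the TMM and upper quartile counts of each list below. The calls on the lower side with TMM came from every list except that of secretion and R-spondins, and those on the higher side over ligands, extracellular inhibitors and 1 cadherin.

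Of 19 WNT ligands, 7 were at the minimum and 8 had 0 counts in both libraries. WNT2B was higher with 270 counts in LINC00472 cells and 161 in control cells (log2 ratio 1.83), as was WNT11 with 95 in LINC00472 cells and 80 in control cells (1.33). WNT10A was lower, from 22 counts in LINC00472 cells and 99 in control cells (-1.07). It reached the minimum only through the control, and with total counts, upper quartile factors, protein-coding TMM factors or adjusted ratios 0 ligands were lower. Of all genes, 16.3%, 14.2%, 18.2% and 23.8% were lower in that order. WNT5A, a ligand known mainly for signalling without beta-catenin and named here after its values were seen, was the most abundant ligand with 50.4 FPKM in LINC00472 cells and 43.4 FPKM in control cells (0.03). Of 6 genes of ligand secretion and R-spondins, 3 were at the minimum and 0 were called. Of 18 receptors, 13 were at the minimum, 1 was lower and 0 were higher, with a median log2 ratio of -0.003. The lower one was ROR1, a receptor for WNT5A (277 counts in LINC00472 cells and 1219 in control cells, -1.05), and with upper quartile factors 2 receptors were higher and 0 lower.

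Of 16 extracellular inhibitors, 5 were at the minimum. FRZB, a decoy for WNT ligands, was higher from 43 counts in LINC00472 cells and 12 in control cells (log2 ratio 2.86), and it reached the minimum only through its level in LINC00472 cells. KREMEN2, a co-receptor for DKK proteins, was also higher (217 in LINC00472 cells and 222 in control cells, 1.05). DKK1, a blocker of LRP receptors that is also on the list of targets, was lower (26 in LINC00472 cells and 143 in control cells, -1.36), and with upper quartile factors 0 of these inhibitors were lower. Of 24 other cytosolic regulators at the minimum, 4 were lower and 0 higher (median -0.50). They were PPP2R1A (-1.81) and PPP2CA (-1.57), subunits of the phosphatase PP2A, SKP1 (-1.36), a subunit of the ligase that takes up phosphorylated beta-catenin, and GSK3A (-1.18). With upper quartile factors 2 of these regulators were higher and 2 lower.

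Of 22 other nuclear partners at the minimum, 3 were lower and 0 higher (median -0.18). They were the corepressor genes AES (-1.62) and CTBP1 (-1.08) and CTNNBIP1 (-1.0), an inhibitor of the contact between beta-catenin and TCF factors. With total counts, upper quartile factors or protein-coding TMM factors 1 of the 22 was lower, against 16.3%, 14.2% and 18.2% of all genes. The median was 0.11, 0.21 and 0.03 in that order, against 0.11, 0.21 and 0.03 over all genes. Of 7 adhesion partners at the minimum, 2 had lower levels, namely CTNNAL1 (-1.27) and CTNNA1, which links cadherin complexes to actin (-1.26). With total counts, upper quartile factors or totals without the 100 most abundant genes, 0 were lower. The cadherin gene CDH3 was higher, with 762 counts in LINC00472 cells and 451 in control cells (1.85).

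Of the 8 lists, the one of other target genes held the largest share of calls. Of 14 at the minimum, 9 were lower and 0 higher, against 23.8% and 16.3% of all genes. Their median log2 ratio was -1.40 and their median transcript 2539 nt. Protein-coding genes in the decile of that length had a median log2 ratio of -0.50. ID2 (-2.07), MYC (-2.05), CCND1 (-1.88) and SP5 (-1.55) had the lowest ratios. SP5 had 38 counts in LINC00472 cells and 238 in control cells. With upper quartile factors 7 of the 14 were lower and 0 higher, against 14.2% and 25.1% of all genes. With adjusted and centred ratios 9 were lower, against 20.4% of all genes. The feedback regulators among the 10 genes, which are targets as well, had log2 ratios of 0.95 for AXIN2, 0.33 for RNF43 and -0.62 for ZNRF3.

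**Figure D5:**
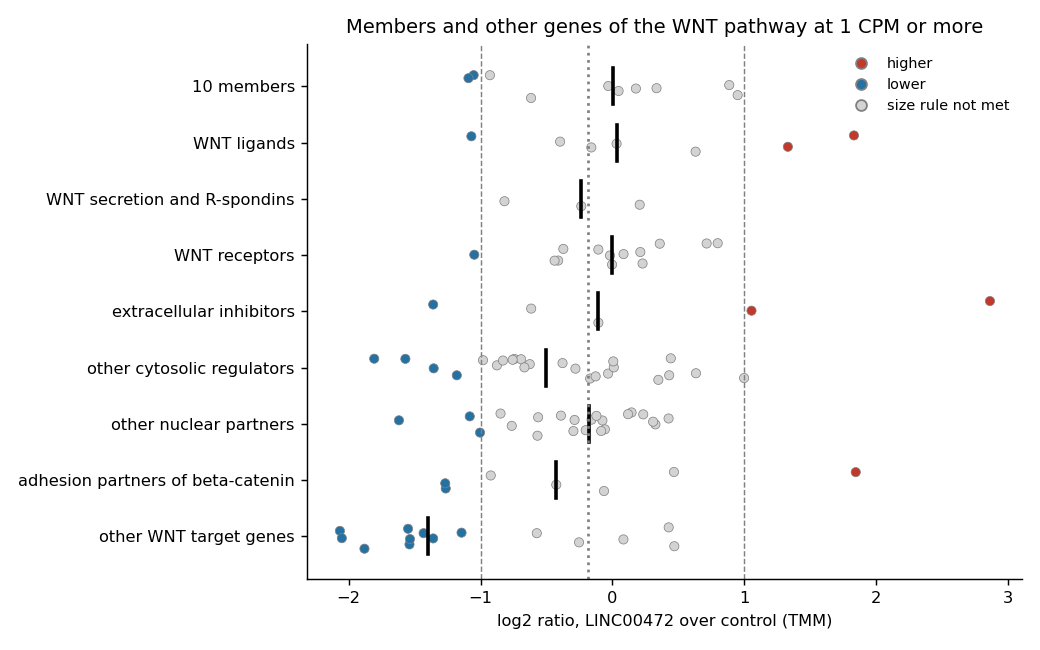
Log2 ratio of LINC00472 over control with TMM scaling for the 10 regulators and for the genes of 8 pathway lists at 1 CPM or more; black bars are list medians, dashed lines mark a 2-fold difference and the dotted line the median of all genes (-0.19). Target genes have the lowest median (-1.40), with 9 of 14 lower in the LINC00472 library, against 23.8% of all genes.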

How the data were processed

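Each library came from 1 transfected culture, named in its title. The authors deposited raw read counts per gene, not normalized, and FPKM values, jointly and library by library, per the file headers. The joint and single tables held the same counts for 27685 of 27685 genes. Build hg19 and the tools HISAT2 2.1.0, StringTie 1.3.4b, bcl2fastq 2.20.0 and Trimmomatic stand in the submitters' processing notes, without roles. How reads were counted and whether by strand was not given in the sources used here.

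Counts were scaled with TMM in edgeR 4.0.16 (R 4.3.3), with factors of 1.11 for LINC00472 and 0.905 for control. Log2 ratios used a prior count of 0.5, and intervals are exact conditional (Clopper-Pearson) 95% intervals of 2 counts. Reads are not independent molecules, so intervals and floors cover counting error only. Pair intervals are exact conditional intervals of the odds ratio. Alternatives were total counts, DESeq2 1.42.0 size factors, upper quartile factors, protein-coding TMM, totals without the 100 most abundant genes, a prior count of 5, FPKM with 0.5 added, single-library tables and minimums of 0.1 and 5 CPM. A further one adjusted ratios with splines (5 knots, degree 3, scikit-learn 1.9.0) of transcript length, GC content and intron length from GENCODE 29, for 96.7% of genes at the minimum. Its centred form and its use on pairs were added after seeing the data. No coordinates in hg19 are printed, and promoters carry those of GRCh38.p14. The size rule was also run on simulated counts with counting error alone, which shows nothing of variation between cultures. Members, lists, pairs and rules were chosen with earlier results of these data known. Named genes were the 10 members, the pair partners, LEF1, MYC and CCND1, and up to 4 called genes per list with the largest absolute ratio. SUPT4H1 and TSPOAP1-AS1 were named for their overlap.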

Additional observations from a re-analysis of the deposited data

How the results depend on the processing

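No paired analysis was possible because each group held 1 library, and for the same reason no replicate could be left out. DESeq2 size factors left every call among the 10 regulators as it was. The single-library tables hold the same counts as the joint one, so they could not change a call. The calls numbered 2 with TMM (0 higher, 2 lower). Total counts, upper quartile factors, protein-coding TMM and totals without the 100 most abundant genes each gave 2 higher and 0 lower. A prior count of 5 and a minimum of 5 CPM each gave 1, on the lower side. TCF7 was just short of 2-fold (log2 ratio -0.998) under the first and below the minimum under the second. Of all genes, 23.5% were lower and 16.0% higher with a prior count of 5, and 26.2% and 11.6% at 5 CPM. FPKM with 0.5 added gave 0, higher or lower, with 7 regulators at its minimum. The shares of all genes were then 17.8% lower and 17.6% higher. Adjusted ratios gave 3 lower (CTNNB1 at -1.07, AXIN1 at -1.06 and ZNRF3 at -1.02), against 23.8% of all genes lower and 12.7% higher, and centred ones gave 1 higher and 0 lower. Over all genes, 2288 were higher and 3341 lower with TMM, 3531 and 1993 with upper quartile factors, and 3510 and 2142 without the 100 most abundant genes, while 3576 were higher at 0.1 CPM and 1347 at 5 CPM. The pathway lists together held 5 higher and 20 lower with TMM. Total counts gave 8 and 12, and upper quartile factors 10 and 10. Without the 100 most abundant genes there were 9 and 12, with 3 higher at 5 CPM and 12 lower with FPKM. Of the list genes at the minimum, 8.51% were higher and 12.8% lower with total counts, against 22.5% and 16.3% of all genes. Without the 100 most abundant genes 9.4% were higher and 12.5% lower, against 24.5% of all genes higher and 2142 of 14321 lower. At 5 CPM 3.7% were higher, against 11.6% of all genes, and with FPKM 14.3% were lower, against 17.8%. The cause of these shifts between settings was not tested. Ratios of FPKM kept every pair within its counting interval. Adjustment moved APC over AXIN1 to 0.40, GSK3B over GSK3A to 0.12, ZNRF3 over RNF43 to -1.19 and CTNNB1 over JUP to -0.25, and left the other 4 pairs within their intervals. TCF7 (21 counts in the LINC00472 library), TCF7L1 (33) and AXIN2 (111) carry the widest intervals.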
